A study of Saccharomyces cerevisiae with 6 samples.

Results

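The 26S proteasome genes and RPN4 were taken by systematic name from a list of 34 genes, 33 subunits and 1 activator. Of these, 27 had transcripts in the deposited tables, out of 2850 genes listed there. They were 13 of 14 core subunit genes (7 of 7 of the alpha ring and 6 of 7 of the beta ring), 5 of 9 of the base, 7 of 9 of the lid, the gene RPN10 that links base and lid, and RPN4. The core gene PUP1, the base genes RPT1, RPT4, RPN1 and RPN2 and the lid genes RPN3 and RPN8 were not analysed here. The choice rests on complex membership, but the group was proposed with the ESI+ and naive values of these libraries known. All comparisons of ESI+ with naive cells below, their p-values included, are therefore a description of these libraries and support nothing further.

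The libraries came from diploid cells of the laboratory strain BY4743 of Saccharomyces cerevisiae, 3 in the [ESI+] state and 3 naive. [ESI+] is known as a prion-like state passed on through cell division, which involves the Set3 complex protein Snt1. Both groups were grown in rich medium (YPD) to mid-log phase, and poly(A)-enriched RNA was sequenced. The labels number 3 biological replicates in each group, and what a number shares between the groups is not stated. In bulk RNA of this kind, fewer cells making a transcript and less transcript per cell cannot be told apart.

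The proteasome degrades proteins that carry ubiquitin chains. Its 20S core is a barrel of stacked alpha and beta rings with the proteolytic sites inside. A base with a ring of ATPases unfolds the substrate, and a lid removes the ubiquitin. In budding yeast the genes of all these parts are driven together by Rpn4, a short-lived transcription factor that the proteasome itself degrades. Rpn4 binds a promoter sequence named the proteasome-associated control element (PACE).

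Total estimated counts were 1937568, 3896490 and 316485 in ESI+ replicates 1, 2 and 3, and 4361435, 1080941 and 5934050 in naive replicates 1, 2 and 3. The 27 genes had 12 to 195 counts each in ESI+ replicate 3, the shallowest library, 167 to 1918 in the other ESI+ libraries and 89 to 2856 in the naive libraries. Pearson's r of log2 CPM across genes, which are not independent replicates, was 0.592 to 0.741 among the ESI+ libraries and 0.926 to 0.952 among the naive libraries. ESI+ replicate 1 correlated more closely with the naive libraries (0.898 to 0.908) than with ESI+ replicates 2 and 3 (0.735 and 0.741). ESI+ replicates 2 and 3 stand apart, with 0.614 to 0.672 to the naive libraries and 0.592 to each other. In ESI+ replicate 2 a length-proportional background, taken as the 5th percentile of counts per kb over all listed genes, was 297 counts per kb, against 1.99 to 55.1 in the other libraries. URA3, deleted in BY4743, stood at 17.8, 26.3 and 333 normalised CPM in ESI+ replicates 1, 2 and 3, and at 32.3, 20.4 and 255 in naive replicates 1, 2 and 3. ESI+ replicate 3 and naive replicate 3 thus go against the strain label for this gene, and the part of this in the results was not tested. Of the other strain marker genes listed, HIS3 had 453 normalised CPM in ESI+ replicate 3, against 32.6 to 66.4 in the other libraries. MET17 had 223 in ESI+ replicate 3, against 48.7 to 109 in the other libraries. DESeq2 called 1 of the 3 strain marker genes tested higher in ESI+, against 241 of 2844 genes in all. MFA1, an a-factor gene that a/alpha diploids repress, had 3.77, 11.4 and 15 normalised CPM in ESI+ and 1.42, 0 and 0.872 in naive libraries. Its ESI+ values all lay above its naive values, at 0 to 86 counts per library (log2 fold change 3.25, standard error 1.25, edgeR adjusted p = 0.0963). DESeq2 called 1 of 2 mating genes tested higher in ESI+, also against 241 of 2844 genes in all.

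The promoters of the subunit genes were searched for the PACE, an element named for the proteasome. Its presence in them was therefore anticipated, and the counts are a description and no independent support. The full PACE, GGTGGCAAA on either strand, was found within the 300 bases before the start codon in 22 of 26 listed subunit genes (84.6%), against 47 of 2848 promoters of all listed genes (1.65%, the subunits included) and 1.22% of 6001 nuclear protein-coding genes. The base of the element farthest from the start codon lay 84 to 183 bases before that codon, with a median of 122. Of the 22 copies, 17 were on the coding strand of their gene. Of the 33 subunit names, 27 had it. The element is printed here for the 6 subunit genes called lower in ESI+ cells and for 3 with small fold changes (PUP3, PRE1 and PRE7), 5' to 3' on the strand of the gene, in build R64 (RefSeq). Capitals mark the PACE, which reads TTTGCCACC where it lies on the other strand.
SCL1 (chrVII:475331-475371, minus strand): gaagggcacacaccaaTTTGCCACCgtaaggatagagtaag
PRE4 (chrVI:249953-249993, minus strand): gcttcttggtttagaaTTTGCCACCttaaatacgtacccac
RPT2 (chrIV:437900-437940, plus strand): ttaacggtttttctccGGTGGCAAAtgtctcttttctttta
RPT3 (chrIV:1261489-1261529, plus strand): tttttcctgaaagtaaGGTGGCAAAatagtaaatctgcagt
RPT5 (chrXV:544849-544889, plus strand): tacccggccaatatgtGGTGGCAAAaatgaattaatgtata
RPN9 (chrIV:1322080-1322120, plus strand): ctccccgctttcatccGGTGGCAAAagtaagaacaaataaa
PUP3 (chrV:349505-349545, minus strand): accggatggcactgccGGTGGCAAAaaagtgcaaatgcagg
PRE1 (chrV:177677-177717, plus strand): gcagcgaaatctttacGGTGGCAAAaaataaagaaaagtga
PRE7 (chrII:141144-141184, plus strand): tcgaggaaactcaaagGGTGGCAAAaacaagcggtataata
The search fixed the capitals, and the flanking bases differed between these genes. Among the 4 listed subunit genes without the full element, RPN10, RPN13 and SEM1 held its first 6 letters, GGTGGC, and PRE5 held neither form. The short form, which overlaps every full one, was present in 7.44% of the promoters of all listed genes. Capitals mark the 6 letters, read as GCCACC on the other strand.
RPN10 (chrVIII:498965-499002, plus strand): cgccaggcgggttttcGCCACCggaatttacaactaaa
RPN13 (chrXII:965653-965690, minus strand): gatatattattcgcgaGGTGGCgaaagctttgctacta
SEM1 (chrIV:1202001-1202038, plus strand): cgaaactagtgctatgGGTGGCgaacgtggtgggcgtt
The RPN4 promoter held neither form. Nor did it hold a Yap1 motif (TTACTAA) or the Pdr1 and Pdr3 motifs TCCGCGGA and TCCGTGGA within the same 300 bases, which says only that these letters are not in this window.

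In naive cells the subunit transcripts were above the middle of the abundance range, and RPN4 lay near that middle. The median TPM (a level per transcript length, on the same total in each library) of the 26 subunits was 325, 231 and 257 in naive replicates 1, 2 and 3, which was 4.70, 3.99 and 3.85 times the median of all listed genes. PUP2 and SCL1, alpha ring genes, had the highest mean naive levels, 627.7 ± 202 and 623.7 ± 148 TPM (SD, n = 3). PRE9, the alpha3 gene, and SEM1, the smallest lid subunit, came next at 564.9 ± 180 and 472.7 ± 224 TPM. The differences between these 4 means are within their spread. RPN10, a ubiquitin receptor, and RPT3, a base ATPase, had the lowest subunit levels, 124 ± 21.6 and 142.8 ± 22.5 TPM, which also overlap. RPN4 was below every subunit in each naive library, with a mean of 67.43 ± 10.5 TPM. In ESI+ replicates 1, 2 and 3 RPN4 was at place 2, 2 and 9 of 27, counted from the lowest, against place 1 in each naive library. RPN10 had 99.7, 336 and 197 TPM in ESI+ replicates 1, 2 and 3, and 121, 104 and 147 TPM in naive replicates 1, 2 and 3, with its highest value in ESI+ replicate 2, the library with the largest background.

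In ESI+ cells all 26 subunit transcripts had negative log2 fold changes (ESI+ minus naive) in the count fit, and RPN4 did not, whereas on log2(TPM + 1) 6 subunits were positive (PRE5, PUP3, PRE1, PRE7, RPN10 and RPN12), with the median of all genes at 0.64 there and all 26 below it. The subunit fold changes ran from -1.75 for SCL1 to -0.11 for RPN10, with a median of -1.10, and the median of all 2844 genes tested was 0.07, with 47.6% of genes negative. With edgeR's quasi-likelihood test (adjusted p under 0.05), 6 of 26 subunits (23.1%) were called lower, namely SCL1, PRE4, RPT2, RPT3, RPT5 and RPN9. Of all genes tested, 1.65% were called lower and 6.26% higher. DESeq2 called the same 6 and RPN6, PRE9 and PRE2 lower, 9 in all, against 5.1% of all genes. Other fits called fewer members lower, with 0 in limma on log2(TPM + 1) (32 of 2850 genes lower in all), 2 in edgeR without robust estimation (28 of 2844 genes) and 3 with a filter of 50 counts in 3 libraries (32 of 2751 genes). In the limma fit 2 members were lower at an unadjusted p under 0.05, against 104 of all genes. No subunit was called higher by edgeR, at an unadjusted p under 0.05 (15.1% of all genes were higher) or by DESeq2 (241 of 2844 genes called higher). At an unadjusted p under 0.05, 16 subunits were lower, against 10.6% of all genes. In 17 subunits all 3 ESI+ values of normalised CPM (counts scaled to a common library size, with TMM factors) lay below all 3 naive values, a pattern seen in 14.6% of all genes. On TPM, 6 subunits had all ESI+ values below all naive values (SCL1, RPT2, RPT5, RPT6, RPN6 and RPN9), against 3.68% of all genes, and the other 20 overlapped.

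**Figure D1:**
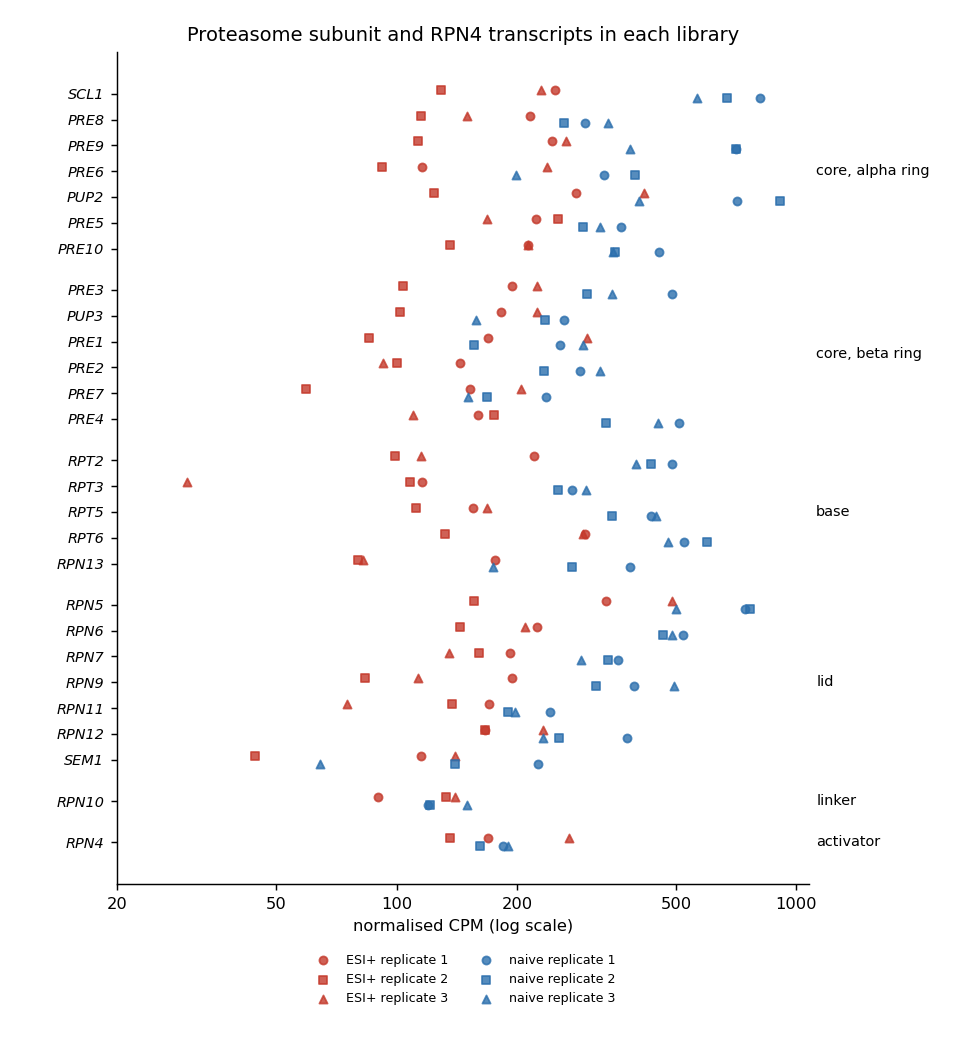
Normalised CPM on a log axis for each of the 27 genes (rows, grouped by subcomplex) in every library; each symbol is 1 library, ESI+ in red and naive in blue. For RPT3 the ESI+ values are 116, 108 and 30 and the naive values 274, 254 and 298, and for RPN4 the groups overlap.

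The abundance classes that hold the subunits had negative median fold changes as well. All genes tested were divided by mean CPM over the 6 libraries into 4 classes of 711 genes. Of the subunits, 15 fell into class 4, the most abundant, and 11 into class 3, with RPN4 also in class 3. Class 4 ran from 233 to 67350 mean CPM and class 3 from 104 to 233, whereas the subunits ran from 122 to 498. The median log2 fold change was -0.70 in class 4 (76.5% negative, 3.94% called lower, 32.1% with all ESI+ values below all naive values) and -0.17 in class 3 (58.9% negative, 2.39% called lower, 17.2% with all ESI+ values below), and 0.70 in class 1, the least abundant. The part of this shift in the subunit values was not tested.

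The core genes SCL1 and PRE4, 2 of 13, were called lower, against 1.65% of all genes tested. SCL1 (YGL011C, chromosome VII, 474489 to 475247), the alpha1 subunit, had 249, 129 and 230 normalised CPM in ESI+ replicates 1, 2 and 3, against 810, 669 and 563 in naive replicates 1, 2 and 3. Every ESI+ value lay under the lowest naive value. Its log2 fold change was -1.75 (standard error 0.56, edgeR adjusted p = 0.0487). PRE4 (YFR050C, chromosome VI, 249066 to 249866), the beta7 subunit, had 160, 175 and 110 normalised CPM in ESI+ and 509, 334 and 450 in naive libraries. Its highest ESI+ value lay well under its lowest naive value, and its log2 fold change was -1.53 (standard error 0.48, edgeR adjusted p = 0.0460).

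The other core genes were not called. PRE9, the one alpha subunit that yeast cells can live without, had 245, 113 and 265 normalised CPM in ESI+ and 707, 706 and 383 in naive libraries, with groups apart (log2 fold change -1.53, standard error 0.55, edgeR adjusted p = 0.0754). PRE2, which carries the chymotrypsin-like site, had 144, 100 and 92.6 in ESI+ and 287, 234 and 323 in naive libraries. Its groups did not overlap either (log2 fold change -1.32, standard error 0.44, edgeR adjusted p = 0.0575). PRE3, which carries the caspase-like site, had a log2 fold change of -1.13 (standard error 0.48). It had 195, 104 and 225 normalised CPM in ESI+ and 489, 299 and 346 in naive libraries, also apart. In the rest of the alpha ring, the log2 fold changes were -1.31 for PUP2, -1.07 for PRE6, -1.04 for PRE10, -0.89 for PRE8 and -0.60 for PRE5. PUP2, the alpha5 subunit, had 281, 124 and 416 normalised CPM in ESI+ and 709, 908 and 405 in naive libraries. Its ESI+ replicate 3 was level with naive replicate 3, and PRE6, the alpha4 subunit, overlapped in the same library. PRE8, PRE10 and PRE5 had groups apart. PRE5 had 223, 254 and 168 normalised CPM in ESI+ and 364, 293 and 322 in naive libraries, with ESI+ replicate 2 its highest ESI+ library. The beta ring genes PRE7, PUP3 and PRE1 had the smallest ones of the core, -0.44, -0.38 and -0.37. PRE1, the beta4 subunit, had 169, 85.5 and 300 normalised CPM in ESI+ and 257, 156 and 292 in naive libraries, so that ESI+ replicate 3 was its highest library. Over the core, 8 of 13 genes had groups apart, 5 in the alpha ring and 3 in the beta ring. All ESI+ values lay below all naive values in 14.6% of all genes tested, 17.2% of abundance class 3 and 32.1% of class 4.

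Of the 5 listed base genes, the ATPase genes RPT2, RPT3 and RPT5 were called lower, against 1.65% of all genes tested. RPT3 (YDR394W, chromosome IV, 1261681 to 1262967) had 116, 108 and 30 normalised CPM in ESI+ and 274, 254 and 298 in naive libraries. The value of ESI+ replicate 3 rests on 12 counts and was the lowest of all 27 genes. The log2 fold change was -1.66 (standard error 0.47, edgeR adjusted p = 0.0335). RPT2 (YDL007W, chromosome IV, 438047 to 439360) had 221, 99.4 and 115 normalised CPM in ESI+ and 488, 433 and 396 in naive libraries. Its log2 fold change was -1.59 (standard error 0.49, edgeR adjusted p = 0.0436), with the groups well apart. RPT5 (YOR117W, chromosome XV, 545029 to 546333) had 155, 112 and 168 normalised CPM in ESI+ and 433, 346 and 446 in naive libraries. The highest ESI+ value was under every naive value, and the log2 fold change was -1.50 (standard error 0.47, edgeR adjusted p = 0.0455). RPT6, another ATPase gene, had 296, 132 and 293 normalised CPM in ESI+ and 524, 597 and 478 in naive libraries. Its groups were apart (log2 fold change -1.15, standard error 0.53, edgeR adjusted p = 0.163). RPN13, the base's ubiquitin receptor, had 176, 80.3 and 82.6 normalised CPM in ESI+ and 383, 274 and 174 in naive libraries, and its ESI+ replicate 1 was level with naive replicate 3 (log2 fold change -1.28, standard error 0.47, edgeR adjusted p = 0.0783).

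In the lid 1 of 7 genes was called lower, against 1.65% of all genes tested. RPN9 (YDR427W, chromosome IV, 1322205 to 1323386), a scaffold subunit, had 194, 83.4 and 113 normalised CPM in ESI+ and 392, 316 and 494 in naive libraries, with no overlap. Its log2 fold change was -1.62 (standard error 0.48, edgeR adjusted p = 0.0386). RPN6, which clamps the lid to the core, had 224, 144 and 210 in ESI+ and 520, 464 and 488 in naive libraries, again apart (log2 fold change -1.35, standard error 0.50, edgeR adjusted p = 0.0814). RPN11, the deubiquitinating enzyme of the lid, had 170, 138 and 75.1 in ESI+ and 242, 190 and 198 in naive libraries, also apart (log2 fold change -0.70, standard error 0.44, edgeR adjusted p = 0.316). The scaffold genes RPN5, RPN7 and RPN12 had log2 fold changes of -1.04, -1.01 and -0.62. RPN5 had 334, 156 and 488 normalised CPM in ESI+ and 743, 766 and 499 in naive libraries, so that replicate 3 of both groups nearly met. RPN12 overlapped, with 166, 166 and 233 in ESI+ and 376, 255 and 233 in naive libraries. SEM1 had -0.55 (standard error 0.51), and its naive values ran from 64.3 to 226 normalised CPM. RPN10 had 89.9, 133 and 140 normalised CPM in ESI+ and 120, 121 and 150 in naive libraries, which overlap (log2 fold change -0.11, standard error 0.44, edgeR adjusted p = 0.893).

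RPN4 (YDL020C, chromosome IV, 415113 to 416708) had 169, 136 and 270 normalised CPM in ESI+ and 185, 162 and 190 in naive libraries. The groups overlap, with ESI+ replicate 2 lowest and ESI+ replicate 3 highest of the 6. The log2 fold change was 0.09 (standard error 0.44, edgeR adjusted p = 0.911), and -0.24 without ESI+ replicate 3. In ESI+ replicate 2 the length-proportional background corresponds to 55.5% of the RPN4 counts. On the TPM scale the level was 79.3, 131 and 155 in ESI+ and 74.4, 55.4 and 72.6 in naive libraries, so every ESI+ value was above every naive value. That pattern occurred in 29.6% of all genes, and the median TPM of all genes was 70.4, 188 and 86.1 in ESI+ and 69.3, 57.9 and 66.6 in naive libraries. By rank among all listed genes RPN4 stood at percentile 53.4, 24.9 and 66.5 in ESI+ replicates 1, 2 and 3, and at 51.9, 49.1 and 52.2 in naive replicates 1, 2 and 3. The subunits also spread more among the ESI+ libraries, with a median coefficient of variation of CPM of 37.3% in ESI+ and 19.4% in naive libraries, beside 49.5% in ESI+ and 26.3% in naive libraries over all genes. For RPN4 it was 36.6% in ESI+ and 8.41% in naive libraries.

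**Figure D2:**
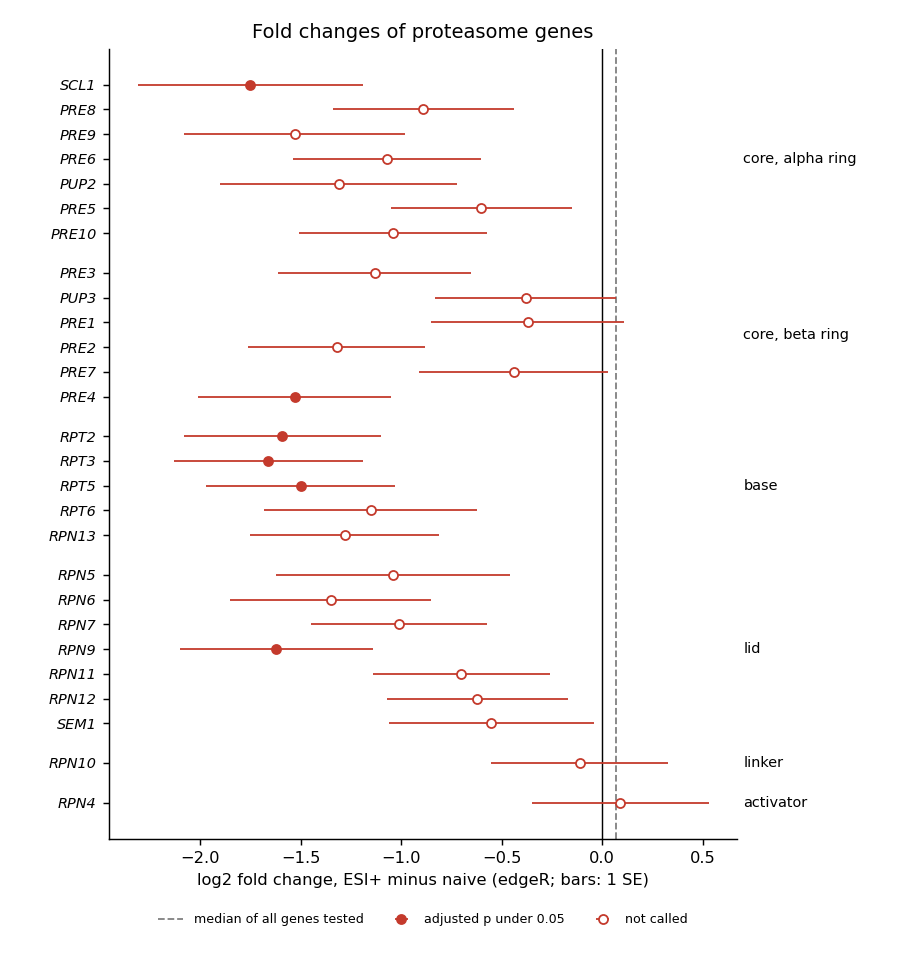
Log2 fold changes (ESI+ minus naive, edgeR on counts) of the 27 genes with bars of 1 SE; filled points have an adjusted p under 0.05 and the dashed line is the median of all genes tested, 0.07. All 26 subunits lie left of 0 on this scale (20 of 26 on log2(TPM + 1)) and RPN4 lies at 0.09.

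The calls of the 6 subunits did not hold in every set of libraries. Without ESI+ replicate 2, which holds the largest background, edgeR called 0 subunits (12 lower and 0 higher at an unadjusted p under 0.05). Over all 2841 genes it then called 0 lower and 2 higher, with 252 lower and 314 higher at an unadjusted p under 0.05. The log2 fold changes of SCL1, PRE4, RPT2, RPT3, RPT5 and RPN9 were then -1.50, -1.66, -1.37, -1.84, -1.34 and -1.37. Without naive replicate 1, 2 or 3 the count of subunits was also 0, with 9, 11 and 13 lower at an unadjusted p under 0.05. Over all 2849 genes, 14, 6 and 4 were then called lower, and 196, 164 and 186 were lower at an unadjusted p under 0.05. The count of subunits was 3 without ESI+ replicate 1 (RPT2, RPN9 and RPN13), where 87 of 2847 genes were called lower. It was 2 without ESI+ replicate 3 (RPT5 and PRE6), where 43 of 2849 genes were. RPN13 and PRE6 are not among the 6 subunits called with all libraries. The background of ESI+ replicate 2 corresponds to 14.3% (PRE5) to 61.7% (RPN9) of a member's counts there. With it subtracted in each library, edgeR called 0 of 2740 genes, with 184 lower and 347 higher at an unadjusted p under 0.05, 13 subunits among the lower, and the log2 fold changes of the same 6 genes were -1.55, -1.20, -1.58, -1.71, -1.51 and -1.66.

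The medians of base, core and lid differed in size. The median log2 fold change was -1.50 over 5 base genes, -1.07 over 13 core genes and -1.01 over 7 lid genes, and -0.78 over the 6 beta ring genes alone. Relative to the mean of the naive libraries, the core median was -0.96, -1.50 and -0.85 in ESI+ replicates 1, 2 and 3. The base median was -0.99, -1.86 and -1.75, and the lid median was -0.80, -1.70 and -1.22. In ESI+ replicate 1 the base and the core were thus about equally low, and the gap between them lay in replicates 2 and 3. Base transcripts are also longer, with a median length of 1430 bases against 907 in the core and 1309 in the lid. The part of length in the difference was not tested. With effective-length offsets in the fit the medians of base, core and lid were -1.53, -1.13 and -1.06. These offsets follow changes of length between libraries within a gene, so they cannot address differences of length between genes.

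**Figure D3:**
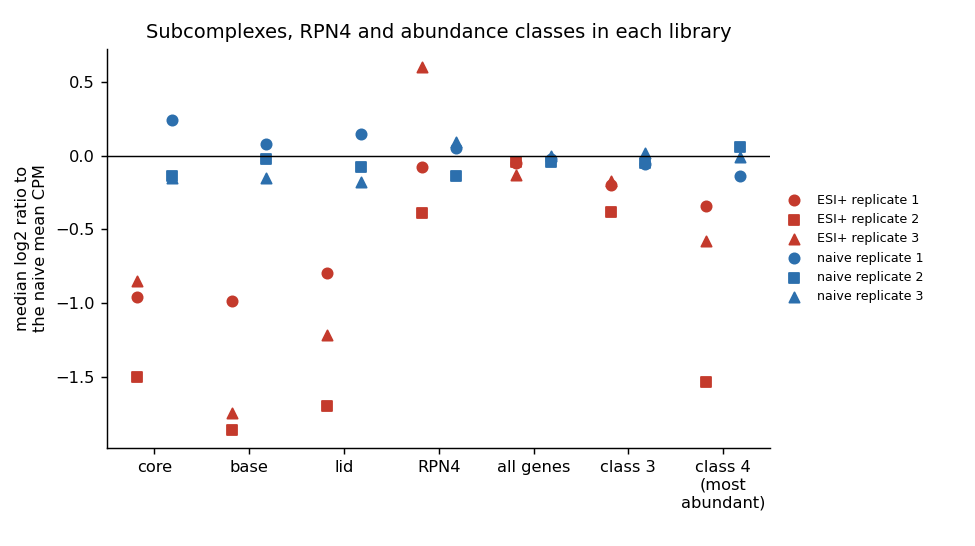
Median log2 ratio of normalised CPM to the naive mean, by library, for core, base and lid genes, RPN4, all genes tested and abundance classes 3 and 4 of all genes; each symbol is 1 library. ESI+ replicate 2 is low for the core (-1.50) and for class 4 (-1.54), and in ESI+ replicate 1 the core stands at -0.96 and class 4 at -0.34.

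Ratios within a library do not depend on its scaling. RPN4 had 0.422, 0.538 and 0.664 of the median subunit TPM in ESI+ replicates 1, 2 and 3, and 0.228, 0.240 and 0.283 in naive replicates 1, 2 and 3. All 3 ESI+ ratios were above all 3 naive ratios. After subtraction of the length-proportional background the ratios, as counts per kb, were 0.408, 0.450 and 0.727 in ESI+ and 0.234, 0.255 and 0.273 in naive libraries, again apart. The ratio of the base median to the core median TPM was 0.641, 0.558 and 0.402 in ESI+ and 0.774, 0.835 and 0.684 in naive libraries, with ESI+ lower in each case. For lid over core it was 0.719, 0.773 and 0.531 in ESI+ and 0.836, 0.827 and 0.737 in naive libraries, which overlap. The subunit median itself was 2.67, 1.29 and 2.72 times the median of all genes in ESI+ and 4.70, 3.99 and 3.85 times in naive libraries. RPN4 was 1.13, 0.695 and 1.8 times that median in ESI+ and 1.07, 0.956 and 1.09 times in naive libraries, which overlap. How many other genes had separate ratios to the subunit median was not counted.

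**Figure D4:**
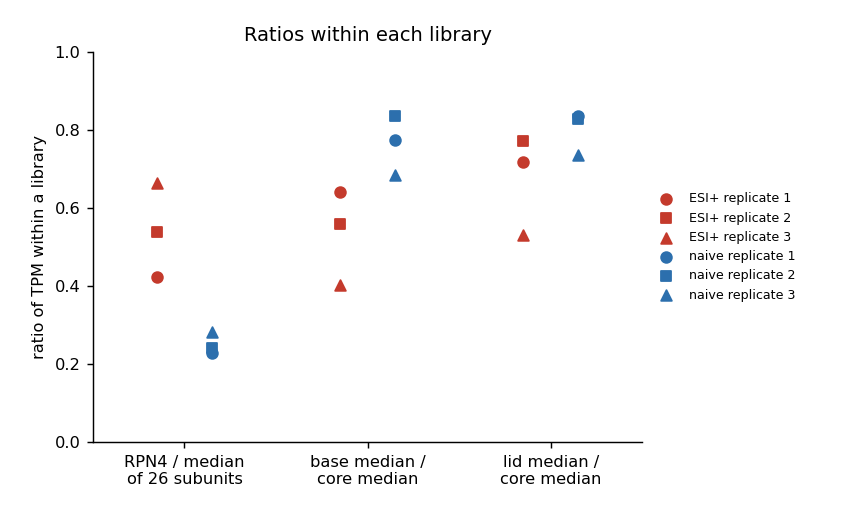
Ratios of TPM values within each library: RPN4 over the median of the 26 subunits, and the base and lid medians over the core median; each symbol is 1 library. The RPN4 ratio is 0.422 to 0.664 in ESI+ and 0.228 to 0.283 in naive libraries.

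Subunit genes with and without the full PACE were set side by side. The median log2 fold change was -1.14 over the 22 with it and -0.57 over the 4 without it (RPN13 -1.28, PRE5 -0.60, SEM1 -0.55 and RPN10 -0.11). All 6 called genes had the element, as did 84.6% of the 26 listed subunit genes, so this count is near the share of all subunits. Outside the proteasome, 25 other tested genes held it, and in 6 of them, GCD1 among these, the same copy also lies in the window of a neighbouring subunit gene. The median log2 fold change of the 25 genes was -0.37, with 2 called lower (CUZ1 and GCD1), 2 called higher (PIM1 and BUD27) and 16 negative. Among all genes tested 1.65% were called lower, 6.26% were called higher and 47.6% were negative, with a median of 0.07. CUZ1, whose zinc finger product binds the proteasome and Cdc48, had 133, 51.6 and 77.6 normalised CPM in ESI+ and 243, 346 and 162 in naive libraries, with groups apart (log2 fold change -1.51, standard error 0.47, edgeR adjusted p = 0.0460). CUZ1, GCD1, PIM1 and BUD27 were named after their values were seen.

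**Figure D5:**
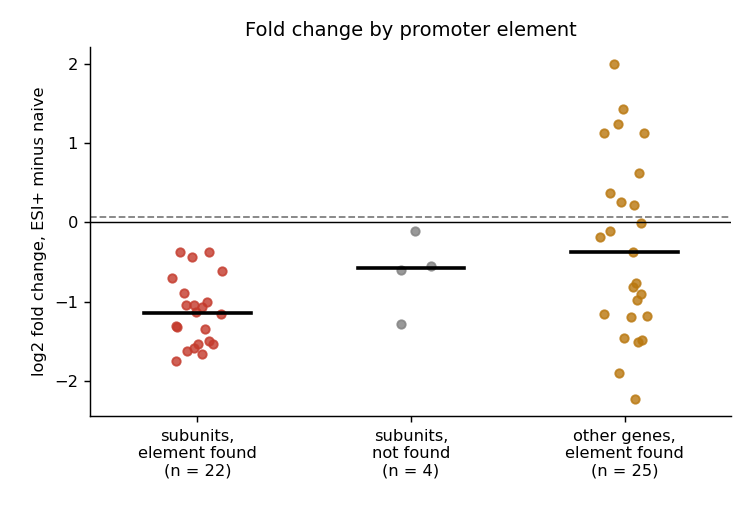
Log2 fold change (ESI+ minus naive, edgeR) of subunit genes with the full element in the 300 bases before the start codon, subunit genes without it, and other tested genes with it; each point is 1 gene, black bars are medians (-1.14, -0.57 and -0.37) and the dashed line is the median of all genes tested.

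Other genes of the pathway were followed by role. Of 11 tested genes for proteasome assembly, storage and adaptors, edgeR called 0 (3 lower and 0 higher by unadjusted p under 0.05). Over all genes tested, edgeR called 1.65% lower and 6.26% higher, and 10.6% were lower and 15.1% higher by unadjusted p. DESeq2 called TMC1 lower, beside 5.1% of all genes. The median log2 fold change of the 11 genes was -0.10, against 0.07 over all genes tested. TMC1, a stress-induced AN1 zinc finger gene with a full PACE, had 375, 115 and 62.6 normalised CPM in ESI+ and 823, 720 and 534 in naive libraries, with groups apart (log2 fold change -1.90, standard error 0.61, edgeR adjusted p = 0.0527). CUE5, a ubiquitin-binding autophagy adaptor, had -0.99 (standard error 0.48), and UMP1, the maturation factor of the core, had -0.96 (standard error 0.47, edgeR adjusted p = 0.194). UMP1 had 81.3, 54.7 and 128 normalised CPM in ESI+ and 174, 113 and 212 in naive libraries, which overlap.

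Of 12 tested genes for ubiquitin and its conjugation or removal, RPN11 among them, edgeR called 0 (1 lower and 1 higher by unadjusted p under 0.05), as did DESeq2. The median was -0.19. Beside this, edgeR called 1.65% of all genes tested lower and 6.26% higher. By unadjusted p 10.6% of all genes were lower and 15.1% higher, and their median was 0.07. The ubiquitin-conjugating enzyme gene CDC34 had a log2 fold change of -1.38 (standard error 0.52, edgeR adjusted p = 0.0895), UBC4, another such gene, had -0.99 and UBP3, a deubiquitinating enzyme gene, had 1.48 (standard error 0.56, edgeR adjusted p = 0.0940). UBP3 had 31.2, 189 and 163 normalised CPM in ESI+ and 32.3, 48.9 and 56.0 in naive libraries, so ESI+ replicate 1 was its lowest library. Of 8 tested genes that deliver ubiquitylated proteins, edgeR called 0 (1 lower and 0 higher by unadjusted p under 0.05). DESeq2 called SHP1 lower, beside 5.1% of all genes, and the median of the 8 was -0.15. SHP1, a Cdc48 cofactor, had 121, 120 and 72.6 normalised CPM in ESI+ and 303, 204 and 261 in naive libraries, with groups apart (log2 fold change -1.28, standard error 0.44, edgeR adjusted p = 0.0652). CDC48, the segregase itself, also held a full PACE and had -0.81 (standard error 0.62). Its partner NPL4 had 0.58 (standard error 0.48). Of the regulators of RPN4 transcription, YAP1 alone was listed. YAP1 also held a full PACE. It had 130, 250 and 138 normalised CPM in ESI+ and 172, 117 and 148 in naive libraries, which overlap (log2 fold change 0.25, standard error 0.44, edgeR adjusted p = 0.750).

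The leading isoform was compared between libraries, for the proteasome genes and for all genes. The tables list 1 isoform for PRE4 and RPT2 and 2 to 41 for the other 25 genes, with 41 for SEM1. The isoform with the highest mean naive TPM was also the leading one in 13, 2 and 13 of the 25 genes in ESI+ replicates 1, 2 and 3, and in 23, 23 and 24 in naive replicates 1, 2 and 3, whose values chose it. Over 1836 listed genes with several isoforms and at least 10 counts in every library, the shares were 55.0%, 20.5% and 51.7% in ESI+ and 82.6%, 82.7% and 87.6% in naive libraries. For the 25 genes they were 52.0%, 8.0% and 52.0% in ESI+ replicates 1, 2 and 3, near the shares of all genes in replicates 1 and 3. The mean isoform length, weighted by TPM, was a median of 31.9 bases longer in ESI+ replicate 2 than in naive cells over the 25 genes, and 17.5 bases longer over the 1836. Summed counts do not depend on which isoform was given the reads, but summed TPM does so through isoform length. No coding span of the 27 genes overlaps that of another annotated gene.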

How the data were processed

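Oligo-dT enriched RNA of 6 libraries, 3 ESI+ and 3 naive, was sequenced in paired ends. The authors used kallisto 0.43.1 and build R64, per the submitters' processing notes. The origin of the isoform models is not given in the sources used here. The authors' tables hold estimated counts and TPM of 17906 isoforms, from 2850 genes, per the file headers. Estimated counts need not be whole, since reads that match several isoforms are divided among them. TPM, as deposited, sets each level relative to transcript length and to the library's total. Total estimated counts per library ran from 316485 to 5934050.

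Isoform values were added up per gene, and the estimated counts were then rounded. After edgeR's default filter (minimum count 10), 2844 genes were scaled by TMM and tested with the quasi-likelihood test of edgeR 4.0.16 (R 4.3.3) with robust estimation, without the replicate number. The p-values were adjusted by Benjamini-Hochberg over all of these genes, with a threshold of 0.05. A standard error is the fold change over the square root of the F statistic. Alternatives were DESeq2 (version 1.42.0), limma 3.58.1 on log2(TPM + 1) and log2(TPM + 0.1), DESeq2 size factors, effective-length offsets, other filters, background subtraction, the replicate number as a block and left-out libraries. The edgeR step was tested on simulated data with the same variation per gene in both groups and no background particular to a library. That run therefore says nothing on the larger ESI+ spread or on the background of ESI+ replicate 2.

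The members, lists and tests were chosen with earlier results of these data known. Every listed member was named, and from each partner list the genes past the threshold or otherwise the 3 with the smallest adjusted p. The labels do not say whether replicates came from separate clones, so p-values measure the spread between these samples. Promoters are the 300 bases before the start codon in the RefSeq R64 genome.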

Additional observations from a re-analysis of the deposited data

How the results depend on the processing

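The direction of every subunit's fold change held in the count fits with DESeq2, DESeq2 size factors, no low-count filter, the stricter filter (50 counts in 3 libraries), effective-length offsets, the replicate block, removal of the 20 most abundant genes, the fit without robust estimation, and without ESI+ replicate 2, without ESI+ replicate 3 or without naive replicate 2. With limma on log2(TPM + 1) and on log2(TPM + 0.1), both of which put the median of all genes at 0.64 or above, the sign turned for PRE5 (0.11), PUP3 (0.21), PRE1 (0.17), PRE7 (0.21), RPN10 (0.61) and RPN12 (0.03). RPN10 also turned with background subtracted (0.23), without ESI+ replicate 1 (0.12) and without naive replicate 3 (0.06). SEM1 turned without naive replicate 1 (0.02), and RPN4 without ESI+ replicate 3 (-0.24) and without ESI+ replicates 2 and 3 (-0.10). Leaving out 1 library gave -0.22 to 0.12 for RPN10, -0.86 to 0.02 for SEM1 and -0.24 to 0.28 for RPN4. The cause was not tested.

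The number of proteasome genes called lower was 0 with both limma fits. At an unadjusted p under 0.05, 2 were lower and 0 higher in each, against 104 and 97 of 2850 genes lower and 589 and 587 higher. The number called lower was 3 with the 50-count filter, where 32 genes in all were called lower, and 2 without robust estimation, where 28 genes in all were called lower. It was 0 with background subtracted, where 0 genes were called higher and 0 lower in all. It was 0 without ESI+ replicates 2 and 3, where again 0 genes were called in either direction (124 lower and 223 higher at an unadjusted p under 0.05, 6 members among the lower). Leaving out 1 library gave 0 to 3 members called lower, 2 to 331 genes called higher and 0 to 87 called lower. DESeq2 called 145 genes lower in all. With a pseudocount of 0.1, limma called 96 genes higher and 20 lower.

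The median log2 fold changes of core, base and lid were -0.38, -0.72 and -0.27 with limma on log2(TPM + 1), and -0.38, -0.73 and -0.27 with the smaller pseudocount. The lid median was -0.83 with background subtracted. Without ESI+ replicates 2 and 3 the base median was -1.01 and the lid median -0.82. Leaving out 1 library gave -1.21 to -0.85 for the core, -1.72 to -1.32 for the base and -1.03 to -0.75 for the lid. Of the partner genes, 2 were called lower with DESeq2, 1 with DESeq2 size factors, 1 with effective-length offsets, and 1 lower with either limma fit, which called 2 higher on log2(TPM + 1) and 1 higher on log2(TPM + 0.1). Leaving out 1 library gave 0 to 1 partner genes higher and 0 to 2 lower.

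The replicate number as a block gave 67 genes called higher and 25 lower, with 2 members (RPT3 and RPN9) and 1 partner gene lower. The adjusted p was then 0.0933 for SCL1, 0.0807 for PRE4, 0.0564 for RPT2 and 0.0758 for RPT5. Same-numbered libraries deviated from their group means with r = -0.0635, -0.209 and -0.0411 across genes, which gives no sign of pairing over all genes. URA3 was high in replicate 3 of both groups (333 normalised CPM in ESI+ and 255 in naive), and whether a number marks a shared source is not stated in the labels. HIS3 was high in ESI+ replicate 3 (453 normalised CPM) but not in naive replicate 3 (50.6). The fit without robust estimation and the fit without ESI+ replicates 2 and 3 were chosen after seeing the data. In ESI+ replicate 3, the shallowest library, RPT3 had 12 counts.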
